A study of Mus musculus with 10 samples.

Results

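The 9 genes described here encode signals that the connective tissue of the colon sends to the epithelial crypts, together with 1 transcription factor of the cells that send them. They are the R-spondins *Rspo1*, *Rspo2* and *Rspo3*, the BMP antagonist *Grem1*, the BMP ligands *Bmp4* and *Bmp5*, the Wnt ligands *Wnt2b* and *Wnt5a*, and *Foxl1*. They were picked by gene symbol as known factors of the stem cell niche, and each symbol stood in 1 row, giving 9 of the 56691 rows in the deposited gene table.

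Crypt stem cells depend on Wnt signals, which R-spondins strengthen by binding LGR receptors and keeping Frizzled receptors at the cell surface. BMP signals oppose the stem cell state and favour differentiation toward the crypt top, and Gremlin 1 binds BMP ligands and blocks them near the crypt base. In mouse intestine, Foxl1-positive telocytes under the epithelium are known as a source of BMP ligands and of Wnt5a, whereas fibroblasts around the crypt base are known as a source of Gremlin 1 and R-spondins.

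RNA of colon tissue was sequenced from mice with colitis to ask how gene expression changed after treatment with amniotic fluid of early chick embryos (ceAF). All 10 mice were male C57BL/6 animals aged 8 weeks, and all drank 3% dextran sulfate sodium (DSS), which injures the colon epithelium, for 7 days. The ceAF group (5 mice, ceAF-1 to ceAF-5) was then gavaged with 15 mL/kg ceAF for 10 days. For the DSS group (5 mice, DSS-1 to DSS-5), what was given in place of ceAF is not given in the sources used here, and neither is the stretch of colon taken for sequencing. Mice given mesalazine and untreated mice were not analysed here, and every difference is between DSS with ceAF and DSS alone.

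Total counts on genes were 16611021, 19901549, 16275884, 16401674 and 16426125 in DSS-1 to DSS-5. They were 14676471, 15568732, 18811795, 16058782 and 17108058 in ceAF-1 to ceAF-5. Levels are given as CPM, the count relative to the library total, after TMM normalization, always in the order of mouse 1 to mouse 5, and fold changes are log2 values of ceAF minus DSS, so that a negative value means lower in the ceAF group. Levels of different genes are compared only as FPKM, which divides by the exonic length.

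The libraries DSS-1, DSS-5 and ceAF-1 stood apart from the rest. DSS-1 had the most RNA of neutrophil genes, with a summed level of 1560 CPM over the 6 listed markers against 123, 286, 200 and 549 CPM in DSS-2 to DSS-5 and 21.0, 249, 184, 127 and 213 CPM in ceAF-1 to ceAF-5. In ceAF-1 the RNA of fibroblast genes was lowest, with a sum of 182 CPM over the 9 fibroblast markers against 694, 660, 846 and 478 CPM in ceAF-2 to ceAF-5 and 1124, 546, 543, 507 and 532 CPM in DSS-1 to DSS-5. In bulk tissue, fewer cells of a type and less RNA per cell cannot be told apart. DSS-5 differed from the other DSS libraries by a chi-square per gene of 75.3 to 87.3, against 13.3 to 47.3 among those 4, and ceAF-1 from the other ceAF libraries by 102 to 133, against 24.0 to 87.6 among those 4. *Grem1* and *Rspo3* are therefore given with and without these libraries.

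Per exonic length, *Grem1* had the highest mean level of the 9 genes, at 13.7 ± 16.1 FPKM (SD, n = 10). It was followed by *Bmp4* at 4.75 ± 1.57, *Wnt5a* at 1.73 ± 0.682, *Bmp5* at 1.02 ± 0.379 and *Rspo3* at 0.862 ± 0.761 FPKM. *Foxl1* was at 0.446 ± 0.240, *Wnt2b* at 0.299 ± 0.0912, *Rspo1* at 0.187 ± 0.116 and *Rspo2* at 0.0990 ± 0.0755 FPKM. The order held mouse by mouse in only part of this list. *Bmp4* exceeded *Wnt5a* in 10 of 10 mice and *Wnt5a* exceeded *Bmp5* in 9, whereas *Grem1* exceeded *Bmp4* in 6 of 10, *Bmp5* exceeded *Rspo3* in 5 and *Rspo3* exceeded *Foxl1* in 6, so these neighbours did not differ beyond their spread. *Foxl1* exceeded *Wnt2b* in 6 mice, *Wnt2b* exceeded *Rspo1* in 8 and *Rspo1* exceeded *Rspo2* in 8.

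In edgeR's quasi-likelihood test, 7 of the 9 genes had enough counts to be tested, and 0 of these 7 were called at an adjusted p-value under 0.05 with a change of at least 1 log2 unit. Among all genes 0 of 16545 tested genes (0%) were called, and 0 with limma-trend on the FPKM values. DESeq2, run without this count filter on the 32504 genes with any count, called 28. At an unadjusted p-value under 0.05, 2 of the 7 (*Grem1* and *Rspo3*) were lower in the ceAF group, beside 607 of all tested genes (3.67%), and 0 of the 7 were higher, beside 539 of all tested genes (3.26%). The values of the DSS and ceAF groups overlapped for all 9 genes, whereas 205 of all tested genes (1.24%) had groups that did not overlap. Of the 7, 5 had a negative and 2 a positive log2 fold change, and their median was -0.34, beside 0.0076 for all tested genes.

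*Rspo3* encodes a secreted R-spondin, and its row (ENSMUSG00000019880) lies at chr10:29328412-29411863 on the minus strand. *Rspo3* was at 6.49, 1.10, 2.93, 1.15 and 6.96 CPM in the DSS mice. In the ceAF mice it was at 1.22, 2.80, 0.877, 1.67 and 1.10 CPM. DSS-1 and DSS-5 were high, DSS-3 lay just above the highest ceAF mouse, and DSS-2 and DSS-4 lay among the ceAF mice, so the groups overlapped. The mean was 3.73 ± 2.84 CPM (SD, n = 5) with DSS and 1.53 ± 0.764 CPM with ceAF. The log2 fold change was -1.28 (SE 0.564), with an unadjusted p of 0.0443 and an adjusted p of 0.713 in edgeR's test. By a two-sided exact permutation test of the log2 CPM over the 10 mice, p was 0.190, where the smallest value this design allows is 0.00794.

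The unadjusted edgeR p-value of *Rspo3* stayed under 0.05 in only 3 of the 10 fits without single mice. It was 0.116 without DSS-1 and 0.132 without DSS-5, the mice with the highest levels, and the fold changes were then -0.99 and -0.91. It was 0.0523 without DSS-3, 0.0787 without ceAF-1, 0.0946 without ceAF-3, 0.0655 without ceAF-4 and 0.0903 without ceAF-5, with fold changes of -1.35, -1.22, -1.12, -1.31 and -1.18. It stayed under 0.05 without DSS-2, without DSS-4 and without ceAF-2. *Rspo3* was lower in the ceAF group in each of these 10 fits. Without DSS-3 and without ceAF-4 the fold change was larger in size than the -1.28 over all mice, although the p-value was higher. With both DSS-1 and DSS-5 left out, an alternative chosen after seeing the data, the fold change was -0.17 (SE 0.473), and with ceAF-1 left out as well it was -0.11 (SE 0.503). Because DSS-1 and DSS-5 held the highest levels of *Rspo3*, a smaller difference without them followed from the choice.

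The R-spondin genes *Rspo1* and *Rspo2* were too low to be tested in the fit, and they are given as raw counts. *Rspo1* (ENSMUSG00000028871, chr4:124880223-124902892, plus strand) had 12, 8, 9, 2 and 3 counts in the DSS mice and 2, 5, 2, 9 and 9 in the ceAF mice. DSS-1 was highest and the groups overlapped through nearly their whole range, with 34 counts in all over the DSS mice and 27 over the ceAF mice. *Rspo2* (ENSMUSG00000051920, chr15:42884190-43034222, minus strand) had 23, 6, 11, 0 and 5 counts in the DSS mice and 10, 6, 7, 3 and 13 in the ceAF mice. DSS-1 was again highest, DSS-4 had 0 counts, and the ceAF mice lay within the range of the DSS mice. A difference was not detectable at this depth for either gene, with a two-sided exact permutation p of 0.667 for *Rspo1* and 0.714 for *Rspo2*.

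*Wnt2b* encodes a Wnt ligand that acts through beta-catenin, and its row (ENSMUSG00000027840) lies at chr3:104852588-104869237 on the minus strand. *Wnt2b* was at 0.985, 1.25, 0.778, 0.769 and 1.56 CPM in the DSS mice and at 1.60, 2.02, 1.04, 1.31 and 1.32 CPM in the ceAF mice, from between 12 and 31 counts per mouse. The lowest values were those of DSS-3 and DSS-4 and the highest that of ceAF-2, while DSS-5 lay above 3 of the ceAF mice. The log2 fold change was 0.44 (SE 0.278), with an adjusted p of 0.787 in edgeR's test. The two-sided exact permutation p was 0.0952. The unadjusted edgeR p of *Wnt2b* was 0.143, and over fits without single mice it lay between 0.0463 (without DSS-5, fold change 0.62) and 0.313 (without ceAF-2, fold change 0.31), under 0.05 in 1 of 10.

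*Wnt5a* encodes a Wnt ligand known mainly for signalling without beta-catenin, and its row (ENSMUSG00000021994) lies at chr14:28226707-28249405 on the plus strand. *Wnt5a* was at 21.9, 13.5, 14.4, 18.8 and 6.78 CPM in the DSS mice and at 7.86, 11.2, 13.5, 18.7 and 8.41 CPM in the ceAF mice. DSS-1 was highest and DSS-5 lowest of all 10, so the ceAF mice lay inside the range of the DSS mice. Its log2 fold change was -0.34 (SE 0.319), with an adjusted p of 0.877 in edgeR's test. By the exact permutation test, p was 0.397. The fold change of *Wnt5a* was -0.16 without DSS-1, -0.54 without ceAF-4 and -0.048 without DSS-1 and ceAF-1.

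*Bmp4*, a BMP ligand, has its row (ENSMUSG00000021835) at chr14:46620977-46628126 on the minus strand. *Bmp4* was at 13.5, 12.4, 8.38, 14.6 and 6.84 CPM in the DSS mice and at 3.51, 12.8, 10.4, 12.8 and 11.1 CPM in the ceAF mice. The value of ceAF-1 was below all others, and the other 4 ceAF mice lay within the DSS range. Its log2 fold change was -0.14 (SE 0.329), with an adjusted p of 0.965 in edgeR's test, and it was 0.078 without ceAF-1. The exact permutation p was 0.698.

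*Bmp5*, the other BMP ligand of the 9, has its row (ENSMUSG00000032179) at chr9:75682646-75807592 on the plus strand. *Bmp5* was at 4.52, 4.90, 2.93, 4.55 and 3.06 CPM in the DSS mice and at 1.07, 3.45, 5.59, 6.09 and 4.51 CPM in the ceAF mice. The lowest value was that of ceAF-1 and the highest were those of ceAF-3 and ceAF-4, so the ceAF mice spread around the DSS mice on both sides. On the log2 scale the difference was 0.06 (SE 0.380), with an adjusted p of 0.987 in edgeR's test. The exact permutation p was 0.873. Leaving out single mice moved the fold change between -0.11 (without ceAF-4) and 0.30 (without ceAF-1), and it was also below 0 without DSS-3 (-0.019), DSS-5 (-0.0045) or ceAF-3 (-0.061).

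*Foxl1* encodes a forkhead transcription factor of subepithelial telocytes, and its row (ENSMUSG00000097084) lies at chr8:121854679-121857383 on the plus strand. *Foxl1* was at 1.16, 1.80, 1.20, 2.43 and 0.660 CPM in the DSS mice and at 0.0763, 1.04, 1.37, 1.67 and 0.605 CPM in the ceAF mice. DSS-4 was highest, and ceAF-1 was lowest with 1 count, ceAF-5 (0.605 CPM) also lay below every DSS mouse, and the other 3 ceAF mice lay among the DSS mice. The log2 fold change was -0.58 (SE 0.545) with an adjusted p of 0.873 in edgeR's test, and -0.31 without ceAF-1. The exact permutation p was 0.286. *Foxl1* stands among the 8 markers listed for telocytes and subepithelial myofibroblasts, of which 0 were at an unadjusted p under 0.05 in either direction. Their summed level was 345, 263, 279, 270 and 226 CPM in the DSS mice and 127, 296, 274, 280 and 186 CPM in the ceAF mice, again lowest in ceAF-1, and the marker with the highest FPKM was *F3* (28.8 FPKM), followed by *Postn* (12.1 FPKM).

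*Grem1*, whose product Gremlin 1 binds and blocks BMP ligands, has its row (ENSMUSG00000074934) at chr2:113576509-113588991 on the minus strand. *Grem1* was at 200.5, 21.6, 50.4, 41.4 and 145.4 CPM in the DSS mice, from 3460, 432, 842, 646 and 2422 counts. In the ceAF mice it was at 1.37, 38.2, 11.2, 30.0 and 18.0 CPM, from 18, 587, 205, 503 and 327 counts. DSS-1 and DSS-5 were far above all other mice and ceAF-1 far below, and the groups overlapped because DSS-2 lay below ceAF-2 and ceAF-4. The mean was 91.9 ± 77.3 CPM (SD, n = 5) with DSS and 19.8 ± 14.7 CPM with ceAF. The log2 fold change was -2.21 (SE 0.774), the largest in size of the 7 tested genes, with an unadjusted p of 0.0155 and an adjusted p of 0.656 in edgeR's test. The two-sided exact permutation test gave p = 0.0397.

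Leaving out single mice moved the fold change of *Grem1* between -2.57 (without ceAF-2) and -1.71 (without DSS-1), and the unadjusted edgeR p was under 0.05 in each of these 10 fits. It was -1.97 without DSS-5 and -1.92 without ceAF-1, and -1.42 (SE 0.574) with both DSS-1 and ceAF-1 left out. With DSS-1 and DSS-5 both left out, chosen after seeing the data, the fold change was -0.93 (SE 0.713) with an unadjusted edgeR p of 0.225. Without DSS-1, DSS-5 and ceAF-1 it was -0.63 (SE 0.413), with an unadjusted edgeR p of 0.160. DSS-1 and DSS-5 held the highest levels of *Grem1*, so that a smaller difference without them followed from the choice here too.

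**Figure D1:**
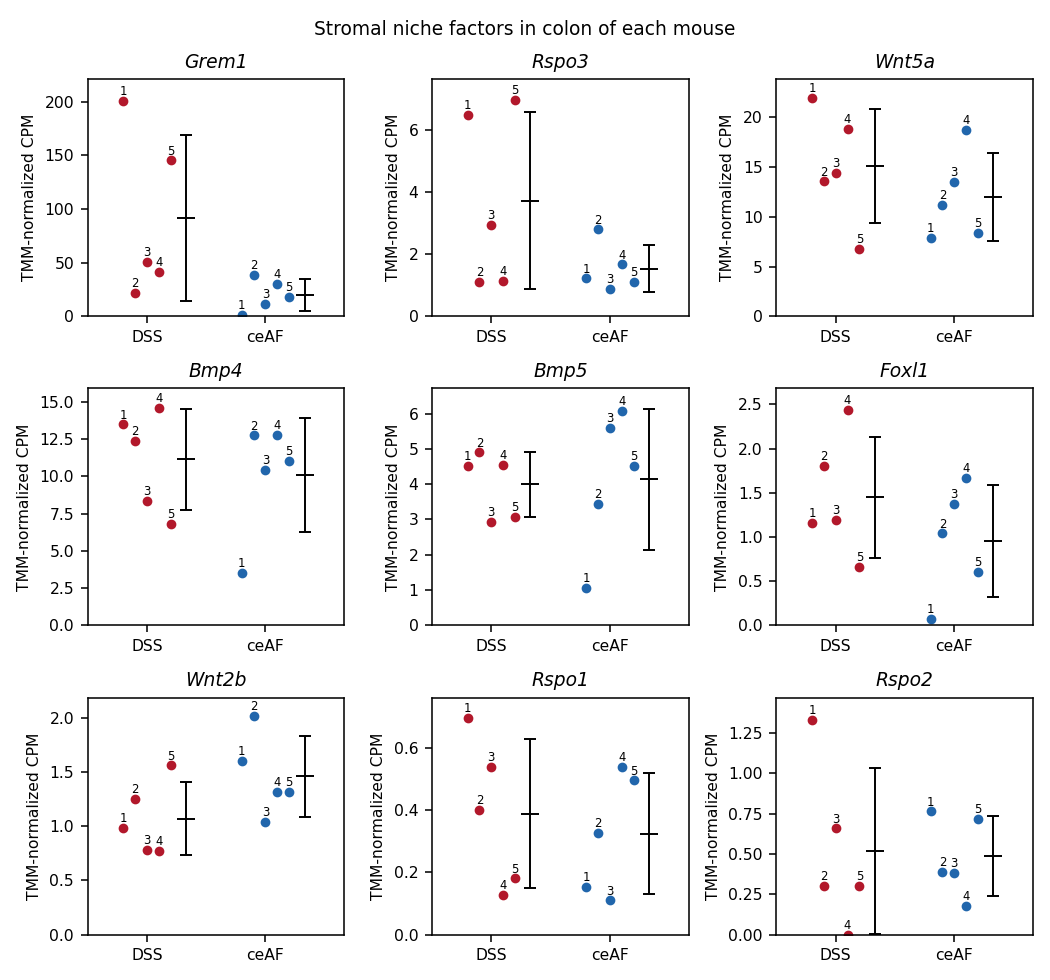
TMM-normalized CPM (vertical axes, linear) of the 9 genes in each of the 5 DSS mice (red) and 5 ceAF mice (blue), with the mouse number above each point and the mean ± SD to the right of each group. *Grem1* stood at 200.5 and 145.4 CPM in DSS-1 and DSS-5 and at 1.37 CPM in ceAF-1, and the groups overlapped for all 9 genes.

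The high and low mice differed between the genes. DSS-1 was the highest of the 10 mice for 4 of the 9 genes (*Rspo1*, *Rspo2*, *Wnt5a* and *Grem1*), and ceAF-1 was the lowest for 4 (*Bmp4*, *Bmp5*, *Grem1* and *Foxl1*). DSS-5 was the lowest DSS mouse for *Bmp4*, *Wnt5a* and *Foxl1*, yet the highest of all mice for *Rspo3* and next to DSS-1 for *Grem1*. In DSS-5, *Grem1* was thus high in the same tissue in which *Foxl1*, *Wnt5a* and *Bmp4* were low. By contrast ceAF-1 was low in *Grem1*, *Foxl1* and both BMP ligands, but its *Rspo3* (1.22 CPM) and *Wnt2b* (1.60 CPM) lay among the other mice.

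Markers of the cells that could carry these genes are given beside them, and their part in the differences was not tested. All 9 fibroblast markers were tested and 0 passed an unadjusted p under 0.05, their median log2 change was -0.21, and the highest FPKM were those of *Col3a1* (23.3) and *Dcn* (18.8). *Grem1* per 100 CPM of summed fibroblast markers was 17.8, 3.96, 9.28, 8.16 and 27.3 CPM in the DSS mice and 0.754, 5.50, 1.70, 3.55 and 3.76 CPM in the ceAF mice. On this ratio too, DSS-5 and DSS-1 were highest and ceAF-1 lowest, and DSS-2 lay below ceAF-2. Of the 6 genes listed for crypt-bottom fibroblasts, 5 were tested and 1 was lower at an unadjusted p under 0.05, which was *Grem1* itself. The summed level of these 6 genes, *Grem1* included, was 504, 166, 252, 172 and 368 CPM in the DSS mice and 70.1, 223, 181, 151 and 216 CPM in the ceAF mice, with *Cd81* (25.2 FPKM) and *C3* (16.8 FPKM) highest. *C3* was at 192, 57.3, 117, 48.4 and 127.5 CPM in the DSS mice and at 22.7, 73.4, 80.0, 33.5 and 98.2 CPM in the ceAF mice. DSS-1, DSS-3 and DSS-5 were the 3 highest DSS mice for *C3*, *Rspo3* and *Grem1* alike. The log2 fold change was -0.82 (SE 0.456) for *C3* but -0.04 (SE 0.217) for *Cd81*, and the median of the 5 tested genes was -0.26. *C3* therefore does not stand for the list.

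Lymphatic endothelium is known as another source of R-spondins, and 2 of its 6 markers were lower at an unadjusted p under 0.05, with a median of -0.79. They were *Ccl21a* (log2 fold change -1.55, SE 0.546, 7.84 FPKM) and *Pdpn* (-1.11, SE 0.419, 3.26 FPKM), also the listed markers with the highest FPKM, and without DSS-1 their fold changes were -0.87 and -0.60, with unadjusted edgeR p-values of 0.0606 and 0.0791. Both kept an unadjusted p under 0.05 in the other 9 fits without single mice, and the groups did not overlap for *Pdpn*. The sum of the 6 markers was 64.0, 26.0, 29.4, 19.0 and 49.2 CPM in the DSS mice and 15.7, 21.7, 17.1, 15.2 and 26.8 CPM in the ceAF mice. DSS-1 and DSS-5, the mice highest in *Rspo3* and *Grem1*, were also highest in this sum. Of 6 pericyte markers, 2 were lower at an unadjusted p under 0.05, *Kcnj8* (-1.04, SE 0.372) and *Abcc9* (-0.86, SE 0.318, 3.97 FPKM), and *Rgs5* had the highest FPKM (31.6). Without DSS-1 the fold changes of *Kcnj8* and *Abcc9* were -0.69 and -0.56, with unadjusted edgeR p-values of 0.0556 and 0.0616. The sum of all 6 pericyte markers was 318, 202, 300.0, 176 and 219 CPM in the DSS mice and 213, 185, 141, 217 and 158 CPM in the ceAF mice.

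Immune markers differed from list to list. All 7 T-cell markers were lower at an unadjusted p under 0.05, among them *Cd3g* (-1.47), *Cd3d* (-1.52), *Trac* (-1.23, highest at 11.8 FPKM) and *Cd3e* (-1.19), with a sum of 82.5, 86.6, 85.4, 92.4 and 30.7 CPM in the DSS mice and 29.2, 44.2, 35.6, 20.2 and 24.4 CPM in the ceAF mice. Without single mice, 6 of the 7 kept an unadjusted p under 0.05 in 10 of 10 fits and *Cd5*, named after its values were seen, in 2. DSS-5, which was high in *Grem1* and *Rspo3*, lay within the ceAF range for this sum. Of the neutrophil markers, 5 of 6 were tested and 4 were lower at an unadjusted p under 0.05. These were *S100a9* (-5.15, SE 1.50), *Cxcr2* (-3.94), *S100a8* (-3.98) and *Csf3r* (-2.80). *Ly6g* (198 FPKM) and *S100a9* (165 FPKM) were highest, but the *S100a9* level had an SD of 432 FPKM. The fold change of *Ly6g* was -0.67 (SE 0.578). With ceAF its mean was 142.8 CPM, where the mean sum of the 6 neutrophil markers was 158.6 CPM, so that sum was mostly *Ly6g*. DSS-1 held 12023 of the 13910 *S100a9* counts over the DSS mice. DSS-1 carried most of the differences of *S100a9*, *Cxcr2*, *S100a8* and *Csf3r*. Without it their fold changes were -2.62, -1.07, -1.97 and -0.76, of which *S100a9* alone kept an unadjusted edgeR p under 0.05. With all mice the exact permutation p was 0.0397 for *S100a9*, 0.159 for *Cxcr2*, 0.111 for *S100a8* and 0.151 for *Csf3r*. Of 6 macrophage markers, 2 were lower at an unadjusted p under 0.05, *Adgre1* (-0.58) and *C1qa* (-0.62, 27.6 FPKM). They kept such a p in 4 and 2 of the 10 fits without single mice, and *C1qb* was next in level at 26.7 FPKM. Of 6 blood endothelial markers, 1 was lower at an unadjusted p under 0.05 (*Cldn5*, -1.41). Its groups did not overlap, and it kept such a p in 10 of 10 fits without single mice. *Pecam1* (4.05 FPKM) and *Cdh5* (2.53 FPKM) were highest in this list.

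In the remaining marker lists 0 genes passed an unadjusted p under 0.05. These lists held 8 smooth muscle markers (highest *Actg2* at 204 FPKM and *Acta2* at 160 FPKM), 3 markers of interstitial cells of Cajal (*Ano1* at 19.3 and *Kit* at 4.13 FPKM), 8 of enteric glia and neurons (*Uchl1* at 4.97 and *Tubb3* at 2.84 FPKM) and 7 of colon epithelium (*Krt8* at 2178 and *Krt20* at 1006 FPKM). They also held 5 B-cell markers (*Cd79a* at 9.26 and *Cd79b* at 6.89 FPKM), 6 mesothelial markers of which 3 were tested (*Krt19*, also epithelial, at 1410.0 FPKM and *Upk1b* at 0.770 FPKM), and 5 adipocyte markers of which 2 were tested (*Cidec* at 7.23 and *Fabp4* at 4.25 FPKM).

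The pieces of colon also differed in *Hox* genes, which are known to mark position along the gut, and of 12 listed *Hox* genes 11 were tested, 1 was higher at an unadjusted p under 0.05 (*Hoxd13*, 2.91, SE 1.23) and 0 were lower. *Hoxd13* was at 4.23, 8.75, 7.12, 1.47 and 10.5 CPM in the DSS mice and at 7.25, 121.3, 108.6, 0 and 4.95 CPM in the ceAF mice, so ceAF-2 and ceAF-3 carried the difference, and the exact permutation p was 0.897. *Hoxb13* (52.4 FPKM) and *Hoxa13* (29.8 FPKM) had the highest mean levels of them. *Hoxb13* was at 76.3, 95.2, 93.0, 111.6 and 206.4 CPM in the DSS mice and at 6.18, 214.8, 149.2, 10.2 and 184.6 CPM in the ceAF mice. *Hoxa13* was at 3.13 CPM in ceAF-1 and between 41.4 and 97.7 CPM in all other mice. The mouse lowest in *Grem1*, *Bmp4*, *Bmp5* and *Foxl1* was thus also lowest in *Hoxa13* and *Hoxb13*, and the part of this in their levels was not tested. *Hoxb6*, singled out after its values were seen, was at 1.28, 25.3, 36.6, 22.4 and 0.960 CPM in the DSS mice and at 91.0, 0.846, 17.4, 2.98 and 0.880 CPM in the ceAF mice. It was thus above 10 CPM in 5 mice (DSS-2, DSS-3, DSS-4, ceAF-1 and ceAF-3) and below 3 CPM in the other 5. Within each group, the samples low in *Hoxb6* were those highest in *Grem1*. DSS-1 and DSS-5, left out together in some fits above, were the only DSS mice low in *Hoxb6*. Those fits thus set DSS mice high in *Hoxb6* against ceAF mice of both levels.

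Among the 5 samples low in *Hoxb6*, *Grem1* was at 145.4 and 200.5 CPM in the 2 DSS mice and between 18.0 and 38.2 CPM in the 3 ceAF mice. Among the 5 samples high in *Hoxb6*, it was between 21.6 and 50.4 CPM in the 3 DSS mice and at 1.37 and 11.2 CPM in the 2 ceAF mice. *Rspo3* was at 6.49 and 6.96 CPM in the DSS mice low in *Hoxb6* and between 1.10 and 2.80 CPM in the ceAF mice low in it. Among the samples high in *Hoxb6*, *Rspo3* was between 1.10 and 2.93 CPM in the DSS mice and at 0.877 and 1.22 CPM in the ceAF mice, which overlapped. With the *Hoxb6* level (above or below 10 CPM) as a term of the edgeR fit, an alternative chosen after seeing the data, the fold change was -2.57 for *Grem1* and -1.35 for *Rspo3*. This level was chosen with *Grem1* in view and follows it within each group, so these values describe the mice and are no support for a difference. The adjusted p of *Grem1* was then 0.310, within a range of 0.310 to 0.9999 over its 23 alternatives, and that of *Rspo3* was 0.524, within a range of 0.477 to 0.9999 over its 22.

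**Figure D2:**
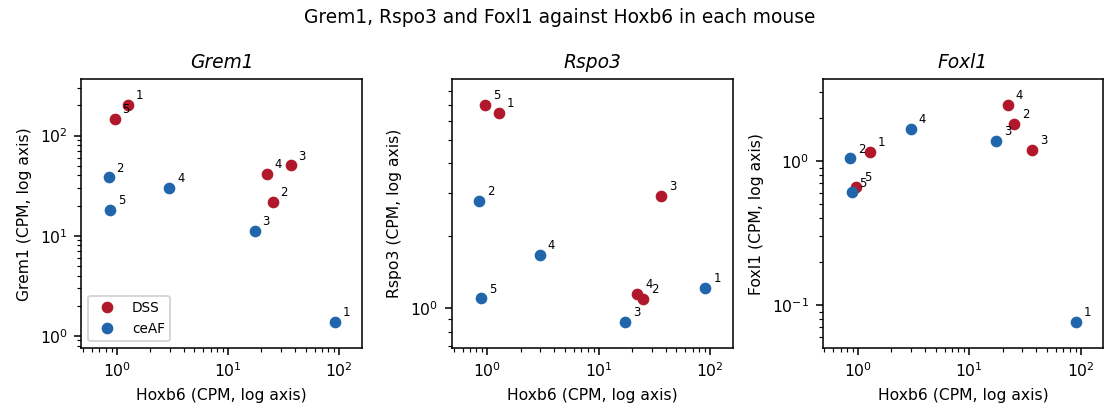
CPM of *Grem1*, *Rspo3* and *Foxl1* (vertical log axes) against CPM of *Hoxb6* (horizontal log axes) in each DSS mouse (red) and ceAF mouse (blue), with the mouse number beside each point. *Grem1* was at 145.4 and 200.5 CPM in the 2 DSS mice low in *Hoxb6* and at most 50.4 CPM in the 3 DSS mice high in it.

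Of the other Wnt and R-spondin ligands, 3 of 18 had enough counts to be tested, and 0 passed an unadjusted p under 0.05 in either direction. The most abundant per length were *Wnt4* (0.823 FPKM, log2 fold change -0.37, SE 0.360) and *Wnt5b* (0.421 FPKM, -0.19, SE 0.320), so *Wnt5a* was the highest of all listed Wnt ligands at 1.73 FPKM. Of the receptors for Wnt and R-spondin, 17 of 20 were tested and 0 passed in either direction, with a median of -0.05. The R-spondin receptor *Lgr4* was highest at 40.1 FPKM (-0.02, SE 0.117), followed by the Wnt receptor *Fzd5* at 19.5 FPKM (0.03, SE 0.273). Of the secreted Wnt inhibitors, 6 of 11 were tested, with a median of -0.51. At an unadjusted p under 0.05, 1 was lower and 0 were higher. The lower one was *Sfrp1* (2.95 FPKM, -0.86, SE 0.325), at 29.4, 11.4, 13.2, 8.77 and 19.3 CPM in the DSS mice and 6.10, 10.7, 6.75, 11.9 and 9.84 CPM in the ceAF mice, and its high mice were DSS-1 and DSS-5, as for *Grem1* and *Rspo3*. *Sfrp1* kept an unadjusted p under 0.05 in 6 of the 10 fits without single mice, and its fold change was -0.54 without DSS-1. The most abundant inhibitor was *Dkk3* (5.54 FPKM, -0.39, SE 0.231).

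Of the 12 Wnt target genes, 11 were tested, with a median of 0.08. At an unadjusted p under 0.05, 1 was lower and 1 was higher. The higher one was *Axin2*, a feedback inhibitor of the pathway, at 5.39, 16.8, 10.2, 11.5 and 13.1 CPM in the DSS mice and 16.1, 18.0, 23.2, 10.6 and 20.7 CPM in the ceAF mice (0.64, SE 0.287). *Axin2* was lowest in DSS-1, the mouse with the most *Grem1*, its groups overlapped, and its unadjusted p stayed under 0.05 in 2 of the 10 fits without single mice. The lower one was *Lef1* (-1.52, SE 0.488), at 9.45 CPM in DSS-1 and between 0.537 and 3.20 CPM in the other mice, and without DSS-1 its fold change was -0.93. *Lef1* kept an unadjusted p under 0.05 in 10 of the 10 fits without single mice. *Ccnd1* (9.60 FPKM, 0.10, SE 0.213) and *Sox9* (9.01 FPKM, -0.27, SE 0.182) were the most abundant.

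Of the other BMP ligands, 6 of 11 were tested and 0 passed in either direction, and *Bmp2* (20.8 FPKM, -0.14, SE 0.249) and *Bmp3* (6.41 FPKM, 0.28, SE 0.605) had the highest mean levels. Per length *Bmp2* exceeded *Bmp4* in 10 of 10 mice, *Bmp3* exceeded *Bmp4* in 3 of 10, and *Bmp3* was highest in ceAF-1 (19.3 FPKM), the mouse lowest in *Bmp4* and *Bmp5*. Of the BMP antagonists besides *Grem1*, 10 of 12 were tested and 9 had a negative fold change, with a median of -0.49. At an unadjusted p under 0.05, 3 were lower and 0 were higher, beside 3.67% and 3.26% of all tested genes. Among all 16545 tested genes, 8034 had a negative fold change. So did 9 of 9 fibroblast, 8 of 8 smooth muscle and 6 of 6 lymphatic endothelial markers, but 3 of 7 colon epithelium markers. *Nbl1* (8.30 FPKM) was at 24.6, 17.8, 20.3, 18.5 and 17.2 CPM in the DSS mice and 14.9, 16.4, 9.82, 16.1 and 12.9 CPM in the ceAF mice (-0.49, SE 0.163), and its groups did not overlap. *Chrd* was at 12.2, 5.70, 6.17, 9.16 and 14.6 CPM in the DSS mice and 2.44, 5.86, 2.85, 5.91 and 7.15 CPM in the ceAF mice (-0.98, SE 0.360). *Chrdl2* was at 15.7, 3.50, 8.56, 5.57 and 18.9 CPM in the DSS mice and 1.15, 5.92, 3.07, 5.07 and 7.75 CPM in the ceAF mice (-1.18, SE 0.535). Over the 10 fits without single mice, an unadjusted p under 0.05 was kept in 10 for *Nbl1*, in 9 for *Chrd* (lost without DSS-5) and in 3 for *Chrdl2*. *Chrd* and *Chrdl2* were highest in DSS-5 and DSS-1 and lowest in ceAF-1, the same mice that were at the ends for *Grem1*. The most abundant antagonist was *Twsg1* (11.2 FPKM, -0.15, SE 0.101).

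Of the BMP receptors and Smads, 10 of 11 were tested and 0 passed in either direction, with *Smad4* (39.6 FPKM, -0.09, SE 0.330) and *Bmpr1a* (16.8 FPKM, -0.06, SE 0.107) highest. Of the BMP target genes, 7 of 9 were tested and 0 passed in either direction, with a median of 0.03, and *Id1* (144 FPKM, -0.15, SE 0.253) and *Id3* (26.7 FPKM, -0.03, SE 0.271) were highest. Of the Hedgehog and forkhead genes of the stroma, 10 of 11 were tested. At an unadjusted p under 0.05, 1 was lower and 0 were higher. *Ihh* (15.8 FPKM, -0.06, SE 0.178) and *Foxf1* (7.23 FPKM, -0.13, SE 0.191) were most abundant. The lower one was *Gli3*, a transcription factor of the Hedgehog pathway, at 5.74, 3.05, 3.77, 4.10 and 3.0 CPM in the DSS mice and 0.916, 2.86, 1.87, 2.33 and 2.03 CPM in the ceAF mice (-0.97, SE 0.301), with groups that did not overlap.

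The tested genes whose log2 CPM followed each member most closely over the 10 mice are named as a description, by Pearson correlation over libraries that differ in depth and in stromal RNA. For *Grem1* they were *Emp3* (0.959), *Serpinh1* (0.952) and *Heg1* (0.950), and for *Rspo3* they were *Rassf8* (0.951), *Crispld2* (0.947) and *Cdh6* (0.915). *Bmp4* was followed by *Nkx2-3* (0.965), *Abcg3* (0.944) and *Wnt4* (0.942), and *Bmp5* by *2810429I04Rik* (0.968), *Plet1* (0.966) and *Mcf2l* (0.963). For *Wnt5a* they were *Kctd14* (0.967), *Chst1* (0.939) and *Carhsp1* (0.925), and for *Foxl1* they were *Tlr12* (0.966), *Srpx2* (0.959) and *Sema3f* (0.947). *Wnt2b* had the weakest match, with *Ap2a1* (0.887), *Epb41* (0.863) and *Lsg1* (0.851). No gene was named for more than 1 member.

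The rows of 6 of the 9 genes overlap another row of the table, and whether the counting used strand is not given in the sources used here. Over the 10 mice the overlapping rows held few reads, with 136 counts on *Gm15222* and 25 on *Gm15217* beside 1810 on *Bmp4*, 32 on *Gm26903* and 0 on *Gm47723* beside 700 on *Bmp5*, and 27 on *Gm43846* beside 210 on *Wnt2b*. There were 21 counts on *Gm2670* beside 2285 on *Wnt5a*, 1 on *Gm12930* beside 61 on *Rspo1*, and 0 on both *Gm48159* and *Gm20276* beside 440 on *Rspo3*. *Grem1*, *Rspo2* and *Foxl1* overlap no other row.

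Promoter sequences from RefSeq (GRCm38.p6, a build whose positions are not those of the gene table) matched 5 of the 9 genes, *Grem1*, *Wnt2b*, *Rspo1*, *Bmp5* and *Bmp4*, and were not matched for *Rspo2*, *Rspo3*, *Wnt5a* and *Foxl1*. The 250 bases before the start are shown for the antagonist with the largest difference and for both BMP ligands, because *Bmp4* and *Bmp5* shared their lowest mouse with it but not its highest. Capitals mark the CCAAT box (CCAAT) and the GC box (GGGCGG), searched with the TATA box (TATAAA) on both strands. *Grem1* is at chr2:113758649-113758898 (minus strand), *Bmp4* at chr14:46390670-46390919 (minus strand) and *Bmp5* at chr9:75775115-75775364 (plus strand).
Grem1: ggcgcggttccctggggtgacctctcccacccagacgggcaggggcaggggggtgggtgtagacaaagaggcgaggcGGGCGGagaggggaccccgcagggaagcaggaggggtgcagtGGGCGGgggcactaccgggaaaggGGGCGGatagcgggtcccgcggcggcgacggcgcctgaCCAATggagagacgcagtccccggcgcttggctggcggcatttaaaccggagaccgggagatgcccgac
Bmp4: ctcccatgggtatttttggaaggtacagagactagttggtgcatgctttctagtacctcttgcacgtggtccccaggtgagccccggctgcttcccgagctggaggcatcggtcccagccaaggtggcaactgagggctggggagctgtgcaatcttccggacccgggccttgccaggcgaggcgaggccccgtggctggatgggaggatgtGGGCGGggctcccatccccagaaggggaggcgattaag
Bmp5: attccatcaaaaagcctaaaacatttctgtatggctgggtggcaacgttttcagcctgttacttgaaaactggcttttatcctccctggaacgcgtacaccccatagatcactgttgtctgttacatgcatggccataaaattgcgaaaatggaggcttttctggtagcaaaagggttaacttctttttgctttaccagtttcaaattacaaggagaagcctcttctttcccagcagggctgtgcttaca

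The *Grem1* window had 72.0% G and C and held 3 GC boxes and 1 CCAAT box. The *Bmp4* window had 63.2% G and C and held 1 GC box, and the *Bmp5* window had 42.8% and held neither motif, against a median of 52.4% over the 32851 promoters of the table. None of the 3 windows held TATAAA. Of all promoter windows of this length, 32.7% held the GC box, 33.8% the CCAAT box and 12.4% the TATA box. These matches describe letters in the windows and were not tested against expression.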

How the data were processed

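RNA sequencing of colon from 10 mice was taken from the 1 gene table of the series. The authors deposited whole-number counts of reads per gene, without normalization, and beside each count an FPKM value, the count scaled by exonic length and library total. The submitters' processing notes name cutadapt 1.9.1 and HISAT2 2.2.1, and the counting program and genome build are not given in the sources used here, so gene positions are printed as the table gives them. Groups and mouse numbers came from the sample labels, and age, sex and doses from the study's methods. That the libraries came from separate mice rests on the labels.

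Genes were kept by filterByExpr (minimum count 10), scaled by TMM and compared with the two-sided quasi-likelihood test of edgeR 4.0.16 in R 4.3.3, with Benjamini-Hochberg adjustment over 16545 genes. CPM on the log2 scale carried a prior count of 1. The exact permutation test (two-sided) took every way to choose 5 of the 10 mice. DESeq2 1.42.0, limma 3.58.1 on log2(FPKM + 1) and log2(FPKM + 0.1), other normalizations and filters, the replicate block and leaving out mice were alternatives. The test was first tried on simulated counts. Figures used matplotlib 3.10.9 in Python 3.11.15.

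The 9 genes and all gene lists were chosen with earlier results of these data known. Named are all 9 genes, from each other list the genes at an unadjusted p under 0.05 (at most 4) and the 2 with the highest FPKM, and for each tested member the 3 most alike genes. *Hoxb6* was named after its values were seen, and 1 gene first listed is not reported here.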

Additional observations from a re-analysis of the deposited data

Results flagged for a closer look

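Of 20 sets of 5 values compared (each of the 9 genes and the total count, in each group), 2 held a mouse far from the other 4, and chance gives about 1 in 20. In the ceAF group, *Bmp4* was lowest in ceAF-1 at 3.51 CPM, with a gap to the next mouse of 0.746 of the whole range, where 0.710 is the limit. In the DSS group, the total count was highest in DSS-2 at 19901549, with a gap of 0.908 of the range. The levels of the 9 genes are scaled to the library, and DSS-2 was the highest mouse for 0 of them.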

How the results depend on the processing

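*Grem1* was lower in the ceAF group in 23 of 23 alternatives, with an unadjusted p under 0.05 in 20, and *Rspo3* was lower in 22 of 22, with an unadjusted p under 0.05 in 9. Both counts of p-values include the fit with the *Hoxb6* level as a term, which is no support for a difference. *Foxl1* was lower in 22 of 22 and *Wnt5a* in 23 of 23, and *Wnt2b* was higher in 22 of 22. None of the 7 tested genes reached an adjusted p under 0.05 in any alternative.

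*Bmp5* changed sign with limma-trend on log2(FPKM + 1) (-0.0054) and log2(FPKM + 0.1) (-0.11), with the replicate block (-0.066), and over fits without 1 mouse it ranged from -0.11 to 0.30. *Bmp4* changed sign without DSS-1 and ceAF-1 (0.15) and ranged from -0.25 to 0.078 without 1 mouse. The cause was not tested.

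Members at an unadjusted p under 0.05 numbered 2, and 1 when genes needed a mean count of at least 50 (which left *Rspo3*, *Wnt2b* and *Foxl1* untested), with either FPKM pseudocount, or without DSS-1 and ceAF-1. There were 0 without DSS-1 and DSS-5, and 0 without DSS-1, DSS-5 and ceAF-1, when 1 gene of all tested was called and 2575 were at an unadjusted p under 0.05; these settings were chosen after seeing the data. Without single mice there were 1 to 2. Genes called among all tested numbered 0, 28 with DESeq2 (on 32504 genes, without the count filter), and 0 to 3 without single mice. Genes at an unadjusted p under 0.05 numbered 1146 of 16545 tested, 1733 of 32504 without a filter on low counts, and 712 to 1872 without single mice.

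The mice share only a number between groups: deviations of same-numbered mice correlated between -0.249 and 0.286, and 1 of 5 pairs matched best with its own number. With the replicate block, 694 genes and 0 members were at an unadjusted p under 0.05, and 0 genes were called.

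Counting error was largest for *Rspo1*, *Rspo2*, *Wnt2b* and *Foxl1*, which had at most 12, 23, 31 and 38 counts in a mouse, so small differences in them would not be detected. Bulk RNA cannot place any of the 9 genes in a cell type, and the stretch of colon sampled is not given in the sources used here.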
